A study of Arabidopsis thaliana with 9 samples.

Results

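The genes described are the 3 cold-induced CBF transcription factors and 7 COR genes that CBF factors are known to activate in Arabidopsis thaliana. They were chosen by locus identifier, 10 of the 33602 loci with a value in each sample. The CBF factors are CBF1 (AT4G25490), CBF2 (AT4G25470) and CBF3 (AT4G25480). The COR genes are COR15A (AT2G42540), COR15B (AT2G42530), COR47 (AT1G20440), KIN1 (AT5G15960), COR6.6 (AT5G15970), RD29A (AT5G52310) and COR413IM1 (AT1G29395).

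The 9 samples of poly(A) RNA came from young leaves of the rosette, 3 samples of each genotype, each pooling 3 plants. The genotypes were ntrc-2cpab, 2cpab and the wild type, all in the Col-0 accession. All plants were 8 weeks old, had grown in short days, and were sampled 2 h into the light period at 125 µE m-2 s-1, with no cold treatment named in the labels. The 2cpab mutant lacks the plastid 2-Cys peroxiredoxins A and B, thiol peroxidases that break down peroxides. The ntrc-2cpab mutant also lacks NTRC, the NADPH-dependent thioredoxin reductase that keeps these peroxiredoxins reduced. The labels give no alleles and do not say whether each genotype came from more than 1 line.

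In the cold, the transcription factor ICE1 and CAMTA factors are known to switch on CBF1, CBF2 and CBF3, which lie side by side in the genome. The CBF proteins bind a short promoter element, the C-repeat or dehydration-responsive element (CRT/DRE), and activate the COR genes. COR proteins include hydrophilic stromal proteins, dehydrins and a chloroplast membrane protein, and they are known for protecting membranes during freezing. Several COR genes also answer to abscisic acid through the element called ABRE, and the circadian clock is known to gate the CBF genes by time of day.

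The CRT/DRE sites are shown first because they are the element that CBF proteins bind. The promoters of COR15A and RD29A are printed because they hold a CRT/DRE core within 250 bases before the annotated start, which the other 5 COR genes do not. Both are RefSeq sequence of TAIR10.1, written in the direction of the gene and ending at the base before the annotated start. Capitals mark the core, CCGAC, or GTCGG where it lies on the other strand.
COR15A promoter, chr2:17712331-17712580, minus strand: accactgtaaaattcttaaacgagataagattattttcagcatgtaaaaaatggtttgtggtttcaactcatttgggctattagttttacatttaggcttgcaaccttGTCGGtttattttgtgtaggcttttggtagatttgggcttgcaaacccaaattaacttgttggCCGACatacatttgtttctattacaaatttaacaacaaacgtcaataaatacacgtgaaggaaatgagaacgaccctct
RD29A promoter, chr5:21240467-21240716, plus strand: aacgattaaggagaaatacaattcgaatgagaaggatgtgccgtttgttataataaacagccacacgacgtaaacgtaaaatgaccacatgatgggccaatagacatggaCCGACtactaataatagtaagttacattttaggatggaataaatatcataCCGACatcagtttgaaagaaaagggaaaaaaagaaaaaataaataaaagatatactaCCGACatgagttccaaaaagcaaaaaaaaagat

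The COR15A window holds 2 cores, 1 on each strand, and the RD29A window holds 3. For the other COR genes the sites in the 1000 bases before the start codon are shown in the same build. Each is the core in capitals with 10 bases on either side, read on the strand that shows CCGAC.
COR15B, chr2:17710684-17710708, plus strand: gtgtggcataCCGACttctagatga
COR15B, chr2:17710124-17710148, minus strand: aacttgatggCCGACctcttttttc
COR47, chr1:7085918-7085942, minus strand: tattcatctaCCGACttcaagaaat
KIN1, chr5:5209205-5209229, plus strand: tactactgatCCGACatcaaaaccg
KIN1, chr5:5209804-5209828, plus strand: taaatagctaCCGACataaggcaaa
COR6.6, chr5:5211771-5211795, plus strand: taaaaagctaCCGACataaggcaaa
COR413IM1, chr1:10289911-10289935, plus strand: ttcattggtaCCGACataactaatt

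Both strands were searched in the 1000 bases before the start codon. The core CCGAC was found in 7 of 7 COR genes and 0 of 3 CBF genes, and in 39.4% of the 27443 protein-coding genes searched. The longer form ACCGAC, which contains the core, was found in 7 of 7 COR genes and in 15.6% of all genes. GCCGAC, which also contains the core, was found in 3 of the COR genes and in 9.23% of all genes. RD29A had 4 cores in this window, COR15A had 3, COR15B and KIN1 had 2 each, and COR47, COR6.6 and COR413IM1 had 1 each. The sites of KIN1 and COR6.6 nearest the start codon differ at 1 of 25 bases. The COR15B site farthest from the start codon lies inside the annotated COR15A gene, whose end is 7 bases from the start of COR15B. The 1000 bases also take in the annotated stretch between start and start codon, which runs from 127 bases in COR413IM1 to 1209 in COR47, and the site nearest the start codon lies inside the annotated gene in all COR genes but COR413IM1.

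Motifs of other known regulators were searched in the same windows. ACGTG, the core of ABRE, was found in 7 of 7 COR and 3 of 3 CBF genes, against 54.2% of all genes, and a palindromic CACGTG counts on both strands. AATATCT, the core of the evening element that clock MYB factors bind, was found in 4 COR genes and 3 of 3 CBF genes, against 30.8% of all genes. CGCG, the core bound by CAMTA factors, was found in 2 COR genes and 1 CBF gene, against 34.7% of all genes. In the 300 bases around the annotated start, AATATCT was found in 3 of 3 CBF genes and 1 COR gene, against 11.5% of all genes. A match is a description of the letters in a window and does not show binding.

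**Figure D1:**
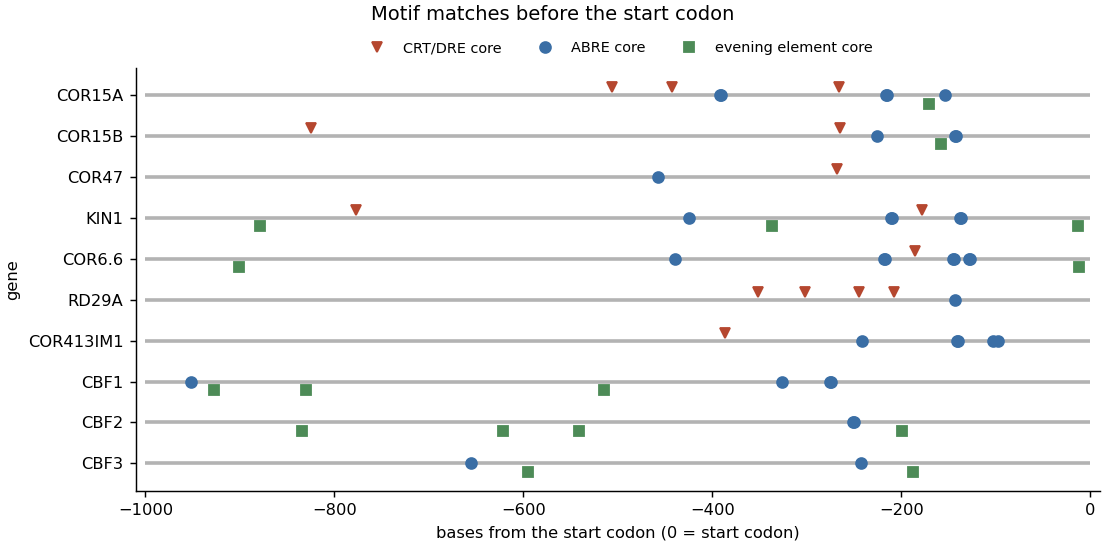
Positions of matches to the CRT/DRE core, the ABRE core and the evening element core before the start codon of each gene, in bases from the start codon (0), both strands, TAIR10.1. CRT/DRE matches, drawn as red triangles, lie on all 7 COR lines and on none of the 3 CBF lines.

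In RefSeq TAIR10.1 the 3 CBF genes lie in tandem on the minus strand of chromosome 4, CBF2 at chr4:13015250-13016235, CBF3 at chr4:13018010-13019400 and CBF1 at chr4:13021780-13022996. Each has 1 coding exon, and their coding sequences are 85 to 86.7% identical. COR15B (chr2:17708593-17710433, minus strand) and COR15A (chr2:17710441-17712330, minus strand) are neighbours with 82.6% identity. KIN1 (chr5:5209717-5210826, plus strand) and COR6.6 (chr5:5211719-5212743, plus strand) are 892 bases apart, and their coding sequences of 201 bases are 95% identical. No source used here says how reads shared by such copies were assigned, so the split between KIN1 and COR6.6 is uncertain. RD29A lies at chr5:21240717-21243644 on the plus strand, COR47 at chr1:7084409-7086873 and COR413IM1 at chr1:10288129-10289666, both on the minus strand.

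Levels are given as abundance, the deposited log2 value with its offset of 1 removed. Summed abundance ran from 960937 to 1029627 per sample and the read depth is unknown. Of the mutated genes, 2CPA had 3.43 to 4.04 in ntrc-2cpab and 3.72 to 4.85 in 2cpab, against 259 to 325 in the wild type. 2CPB had 8.88 to 10.8 in ntrc-2cpab and 9.34 to 10.6 in 2cpab, against 53.0 to 63.4 in the wild type. NTRC had 14.7 to 18.3 in ntrc-2cpab, against 60.9 to 68.1 in 2cpab and 74.5 to 80.2 in the wild type. Wild type replicate 1 stood furthest from the rest, with a median Pearson r of 0.973 with the other 8 samples over the tested loci, against 0.982 to 0.987 in the others. It also had the highest share of plastid-encoded abundance, 55.9% in a range from 46.8%. By genotype this share was 51.7 to 55.9% in the wild-type samples and 46.8 to 51.3% in the mutant samples. The 4 markers of leaf mesophyll summed to at least 24728 in every sample, while those of root and flower (PYK10, AP3 and AG) summed to at most 0.451. Since these are bulk leaves, fewer cells of a type and less RNA per cell cannot be told apart.

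The CBF factors were barely present in these leaves. CBF1 had abundances of 0, 0 and 0.0798 in the 3 ntrc-2cpab samples, 0.00138, 0.0336 and 0 in the 2cpab samples, and 0, 0.0432 and 0.00117 in the wild type. CBF1 was thus listed at 0 in some samples of every genotype, and no difference is read from it. CBF2 had 0.161, 0.05 and 0.125 in ntrc-2cpab, 0.393, 0.163 and 0.133 in 2cpab, and 0.399, 0.390 and 0.386 in the wild type. All 3 ntrc-2cpab samples lay below all 3 wild-type samples for CBF2, and 2cpab replicate 1 lay within the wild-type range. Over the tested loci, which leave out the CBF genes, 13.9% lay below the wild type without overlap in ntrc-2cpab. CBF3 had 0.188, 0.237 and 0.204 in ntrc-2cpab, 0.163, 0.260 and 0.491 in 2cpab, and 0.573, 0.517 and 0.224 in the wild type. For CBF3 the genotypes overlapped. Summed over the 3 genes, the CBF abundance was 0.287 to 0.409 in ntrc-2cpab, 0.457 to 0.623 in 2cpab and 0.611 to 0.972 in the wild type. The sums of 2cpab and the wild type overlapped. Since the sums add values near 0, including those of CBF1 and CBF3, no difference is read from them.

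None of the 3 CBF genes reached the mean abundance of 1 that a locus needed to be tested, so their values come from a fit without that filter, over 28719 loci. In that fit 0 of 3 were called in each of the 4 comparisons, against 0.808% of loci for ntrc-2cpab over the wild type, 0.0244% for 2cpab over the wild type, 0.0174% for ntrc-2cpab over 2cpab and 1.4% for the mean of both mutants over the wild type. CBF2 averaged 0.112 ± 0.0565 in ntrc-2cpab, against 0.392 ± 0.00668 in the wild type (SD, n = 3 each). Its log2 difference was -0.32 (SE 0.08), which did not pass (limma, Benjamini-Hochberg adjusted p = 0.0878, unadjusted p = 0.0027). CBF2 in 2cpab averaged 0.230 ± 0.143, with a log2 difference from the wild type of -0.18 (limma, adjusted p = 0.367). CBF3 averaged 0.210 ± 0.0253 in ntrc-2cpab, 0.304 ± 0.168 in 2cpab and 0.438 ± 0.187 in the wild type, and its adjusted p was at least 0.325 in all 4 comparisons (limma). At so low a level the log2 difference depends on the offset: for CBF2 in ntrc-2cpab over the wild type it was -1.25 with an offset of 0.1 in place of 1. It was -0.32 without wild type replicate 1. Without 2cpab replicate 1, CBF2 passed in ntrc-2cpab over the wild type, at the same difference of -0.32 (limma adjusted p = 0.0443), and with both mutants averaged, at -0.30 (limma adjusted p = 0.0379).

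**Figure D2:**
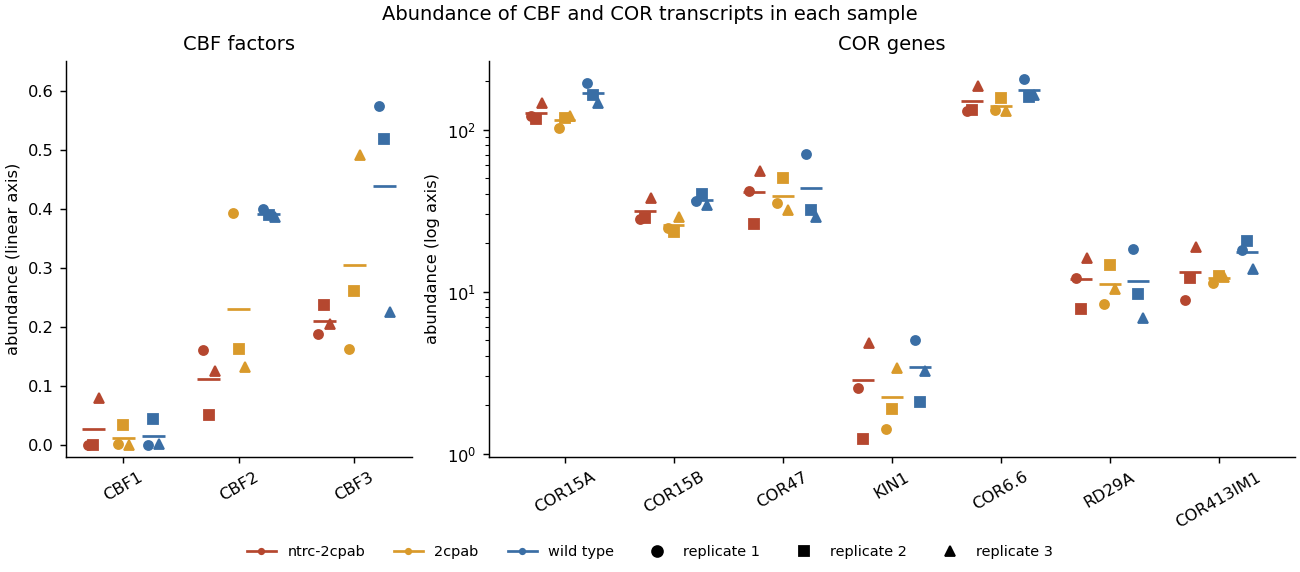
Abundance of the CBF factors (left, linear axis) and COR genes (right, log axis) in each of the 9 samples, one point per sample, shaped by replicate number, with a line at the mean of each genotype. All CBF points lie below 0.6, the highest being 0.573 in the wild type, while COR15A and COR6.6 lie above 100 in every sample.

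The COR genes covered a wide range of levels in the same leaves. Their order from high to low by mean over the 9 samples was COR6.6 (155), COR15A (136), COR47 (41.3), COR15B (31.3), COR413IM1 (14.2), RD29A (11.6) and KIN1 (2.84). The tool named in the processing notes reports levels per transcript length, and which of its measures was deposited is not given. Some neighbours in this order overlapped across samples: COR6.6 ran from 129 to 205 and COR15A from 103 to 195, and below them COR47 ran from 26.2 to 70.8 and COR15B from 23.3 to 40.2. COR413IM1, from 8.93 to 20.4, and RD29A, from 6.85 to 18.3, lay below COR15B and overlapped each other, while KIN1, from 1.23 to 5, lay below both in every sample. Among loci above 0 in a sample, COR15A stood at percentile 97.2 to 98.6 and COR6.6 at 97.5 to 98.6. KIN1 stood at percentile 33.2 to 61.9, CBF3 at 14.2 to 26.5 and CBF2 at 8.69 to 23.5.

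COR15A and COR15B encode small hydrophilic proteins of the chloroplast stroma that protect membranes in freezing. COR15A had abundances of 121, 116 and 145 in the ntrc-2cpab samples, 103, 118 and 122 in the 2cpab samples, and 195, 163 and 146 in the wild-type samples. All 6 mutant samples lay below all 3 wild-type samples, and the gap was narrow, since ntrc-2cpab replicate 3 was at 144.8 and wild type replicate 3 at 146. COR15A averaged 127 ± 15.3 in ntrc-2cpab, 114 ± 9.98 in 2cpab and 168 ± 24.6 in the wild type (SD, n = 3 each). With both mutants averaged, COR15A fell by 0.47 on the log2 scale against the wild type (SE 0.11, 95% interval -0.71 to -0.22, limma with Benjamini-Hochberg adjustment over 16384 loci, adjusted p = 0.0449). Neither mutant alone passed the threshold of 0.05 for COR15A: the log2 difference was -0.39 in ntrc-2cpab (limma adjusted p = 0.105) and -0.54 in 2cpab (limma adjusted p = 0.0952). Without wild type replicate 1 the averaged difference of COR15A was -0.36 with a limma adjusted p of 0.143. The call also ended without wild type replicate 2, without any 1 of the 3 2cpab samples, and without ntrc-2cpab replicate 1 or 2, at limma adjusted p-values up to 0.0905.

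COR15B, the neighbour of COR15A, had abundances of 28.0, 28.6 and 37.6 in ntrc-2cpab, 24.8, 23.3 and 28.9 in 2cpab, and 36, 40.2 and 34.3 in the wild type. The 3 2cpab samples lay below every wild-type sample, whereas ntrc-2cpab replicate 3 lay within the wild-type range. COR15B averaged 31.4 ± 5.37 in ntrc-2cpab, 25.7 ± 2.92 in 2cpab and 36.8 ± 3.05 in the wild type (SD, n = 3 each). Its log2 difference from the wild type was -0.23 in ntrc-2cpab (95% interval -0.52 to 0.05, limma adjusted p = 0.292) and -0.51 in 2cpab (95% interval -0.79 to -0.22, limma adjusted p = 0.109). With both mutants averaged it was -0.37 (limma adjusted p = 0.0794), so COR15B was not called. Without ntrc-2cpab replicate 3, COR15B passed in that comparison, with a difference of -0.44 and a limma adjusted p of 0.0412.

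COR6.6, also called KIN2, and KIN1 encode a pair of small hydrophilic proteins. COR6.6 had abundances of 129, 133 and 187 in ntrc-2cpab, 131, 157 and 130 in 2cpab, and 205, 159 and 164 in the wild type. The 2cpab samples lay below the wild-type samples by a narrow margin (157 against 159), and ntrc-2cpab replicate 3 lay within the wild-type range. The log2 difference of COR6.6 from the wild type was -0.24 in ntrc-2cpab (limma adjusted p = 0.373) and -0.33 in 2cpab (limma adjusted p = 0.319). With 1 sample left out the COR6.6 difference lay between -0.41 and -0.13 in ntrc-2cpab and between -0.42 and -0.22 in 2cpab, and it was smallest in both without wild type replicate 1. KIN1 had 2.55, 1.23 and 4.80 in ntrc-2cpab, 1.41, 1.89 and 3.37 in 2cpab, and 5, 2.07 and 3.25 in the wild type. The 3 genotypes overlapped for KIN1, with log2 differences from the wild type of -0.26 in ntrc-2cpab (limma adjusted p = 0.71) and -0.45 in 2cpab (limma adjusted p = 0.557). The 95% intervals of KIN1 were wide, -1.07 to 0.56 in ntrc-2cpab and -1.27 to 0.36 in 2cpab.

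COR413IM1 encodes a protein of the chloroplast inner envelope membrane. It had abundances of 8.93, 12.1 and 18.7 in ntrc-2cpab, 11.3, 12.5 and 12.3 in 2cpab, and 18, 20.4 and 13.8 in the wild type. Here too the 2cpab samples lay below the wild-type samples, while the ntrc-2cpab samples spread from below the 2cpab range into the wild-type range. COR413IM1 averaged 13.2 ± 4.99 in ntrc-2cpab, 12.0 ± 0.650 in 2cpab and 17.4 ± 3.34 in the wild type (SD, n = 3 each). Its log2 difference from the wild type was -0.41 in ntrc-2cpab (limma adjusted p = 0.286) and -0.48 in 2cpab (limma adjusted p = 0.306). With 1 sample left out the COR413IM1 difference lay between -0.68 and -0.18 in ntrc-2cpab, at the ends without ntrc-2cpab replicate 3 and without ntrc-2cpab replicate 1, and between -0.63 and -0.37 in 2cpab.

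COR47 is a dehydrin, and RD29A encodes a hydrophilic protein that is widely used as a reporter of cold and dehydration signalling. COR47 had abundances of 41.5, 26.2 and 55.1 in ntrc-2cpab, 35.1, 50.2 and 31.9 in 2cpab, and 70.8, 32.0 and 28.9 in the wild type. RD29A had 12.1, 7.80 and 16.2 in ntrc-2cpab, 8.43, 14.5 and 10.3 in 2cpab, and 18.3, 9.69 and 6.85 in the wild type. The wild-type range enclosed all 6 mutant samples for RD29A and all but ntrc-2cpab replicate 2 for COR47, and the genotype means lay close to each other. RD29A averaged 12.0 ± 4.18 in ntrc-2cpab, 11.1 ± 3.11 in 2cpab and 11.6 ± 5.99 in the wild type (SD, n = 3 each). The log2 differences from the wild type were -0.04 in ntrc-2cpab and -0.07 in 2cpab for COR47, and 0.09 in ntrc-2cpab and 0.01 in 2cpab for RD29A, with limma adjusted p-values of at least 0.898. The 95% intervals ran from -0.87 to 0.73 for COR47 in 2cpab and from -0.68 to 0.86 for RD29A in ntrc-2cpab, so neither gene's direction could be read at this spread. The sign of both genes turned with several samples left out.

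Read as a list, 0 of 7 COR genes were called in ntrc-2cpab over the wild type, where 3.94% of all tested loci were called, and 0 of 7 in 2cpab over the wild type, where 0.134% were. With limma's unadjusted p under 0.05, 1 of 7 passed in ntrc-2cpab (24.4% of all loci) and 2 of 7 in 2cpab (17.3% of all loci). With both mutants averaged, 1 of 7 was called, COR15A, against 5.11% of loci called in either direction and 1.98% called lower. By unadjusted p, 3 of 7 passed in that comparison, against 25% of all loci. Of the 7 COR genes, 1 (COR15A) was below the wild type without overlap in ntrc-2cpab, against 13.9% of loci. In 2cpab 4 were (COR15A, COR15B, COR6.6 and COR413IM1), against 11.6% of loci. With all 6 mutant samples as 1 group it was COR15A alone, against 7.35% of loci.

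The median log2 difference of the 7 COR genes from the wild type was -0.24 in ntrc-2cpab and -0.45 in 2cpab, and -0.35 with both mutants averaged, while the median over all tested loci was within 0.0018 of 0 in each of these. The estimate was below 0 for 6 of 7 COR genes in each mutant, against 49.6% of loci in ntrc-2cpab and 50% in 2cpab, and for 6 of 7 with both averaged, against 50.1%. These comparisons share the 3 wild-type samples. Without wild type replicate 1 the medians were -0.13 in ntrc-2cpab, -0.22 in 2cpab and -0.18 with both averaged, with 5 of 7 estimates below 0 in each. Without ntrc-2cpab replicate 3 the ntrc-2cpab median was -0.41 with 7 of 7 below 0, and without ntrc-2cpab replicate 1 it was -0.16 with 6 of 7, and without ntrc-2cpab replicate 2 it was -0.17 with 4 of 7. The 2cpab median without 2cpab replicate 1 was -0.29 with 6 of 7 below 0.

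**Figure D3:**
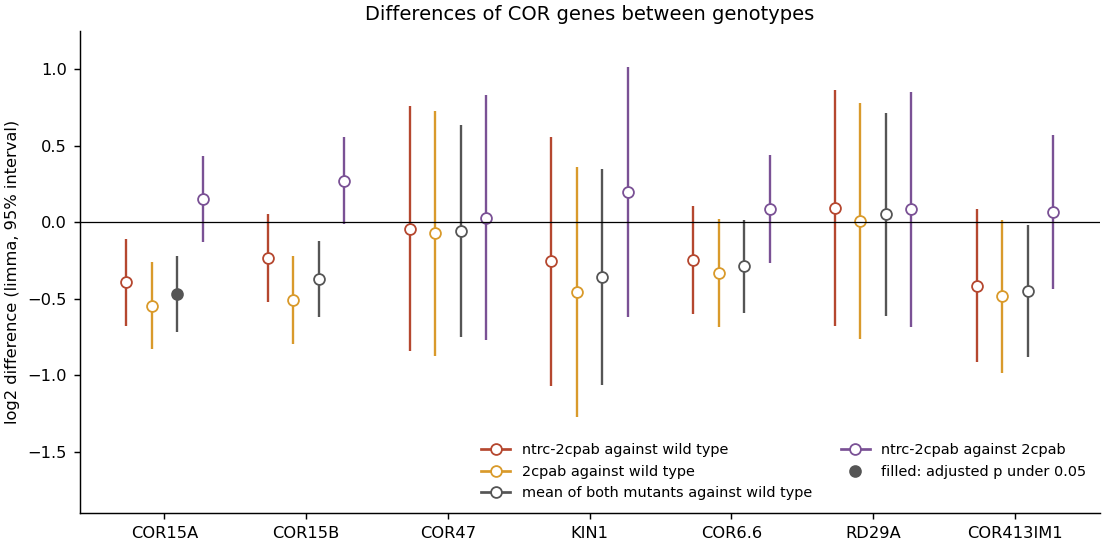
Log2 differences of the 7 COR genes in 4 comparisons, with 95% intervals from limma; filled points passed an adjusted p of 0.05. The filled point is COR15A with both mutants averaged, at -0.47, and the intervals of COR47, KIN1 and RD29A are the widest.

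The added loss of NTRC was read from ntrc-2cpab against 2cpab. In that comparison 0 of 7 COR genes were called and 0 of 7 passed an unadjusted p of 0.05 (limma), against 0.0061% and 4.32% of all loci. All 7 COR estimates lay above 0, where 47.4% of loci lay below 0, and their median was 0.09 against 0.01 over all tested loci. The largest was COR15B at 0.27 (95% interval -0.01 to 0.56, limma adjusted p = 0.993), and COR15A was at 0.15 (95% interval -0.13 to 0.44, limma adjusted p = 0.993). The common sign depended on single samples. Without ntrc-2cpab replicate 3 the median was -0.14 with 5 of 7 estimates below 0. Without 2cpab replicate 1 it was 0.03 with 2 of 7 below 0, and 1 of 7 lay below 0 without 2cpab replicate 3 or without ntrc-2cpab replicate 1. The median was highest, at 0.31, without ntrc-2cpab replicate 2.

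For 3 of the 7 COR genes the samples of 1 genotype differed among themselves in a shared way. COR47, COR6.6 and RD29A were highest in the same sample of each genotype, namely ntrc-2cpab replicate 3, 2cpab replicate 2 and wild type replicate 1. This ordering was picked out after the values were seen, and 2.74% of all tested loci (449) have it. RD29A deviated from its mean over the 9 samples by 0.51, 0.37 and 0.68 on the log2 scale in those 3 samples, and COR47 by 0.48, 0.35 and 0.83. Among 26 tested genes of other cold-regulated proteins, 8 had the same ordering: the dehydrins ERD10, ERD14 and LTI30, the galactinol synthase GOLS3, the membrane peptide RCI2A, and LEA14, ERD7 and ERD4. ERD10 had abundances of 60.6, 38.6 and 76.3 in ntrc-2cpab, 48.0, 62.4 and 47.8 in 2cpab, and 78.0, 54.3 and 36.6 in the wild type. None of the 23 tested regulators upstream of CBF and none of the 10 other tested early cold factors had it.

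The spread within genotypes split the COR genes. It was smallest for COR15A and COR15B, with a pooled SD of 0.17 on the log2 scale each, followed by 0.22 for COR6.6 and 0.33 for COR413IM1. It was 0.52 for RD29A, 0.54 for COR47 and 0.55 for KIN1. The same genotype difference is thus harder to detect for RD29A, COR47 and KIN1.

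**Figure D4:**
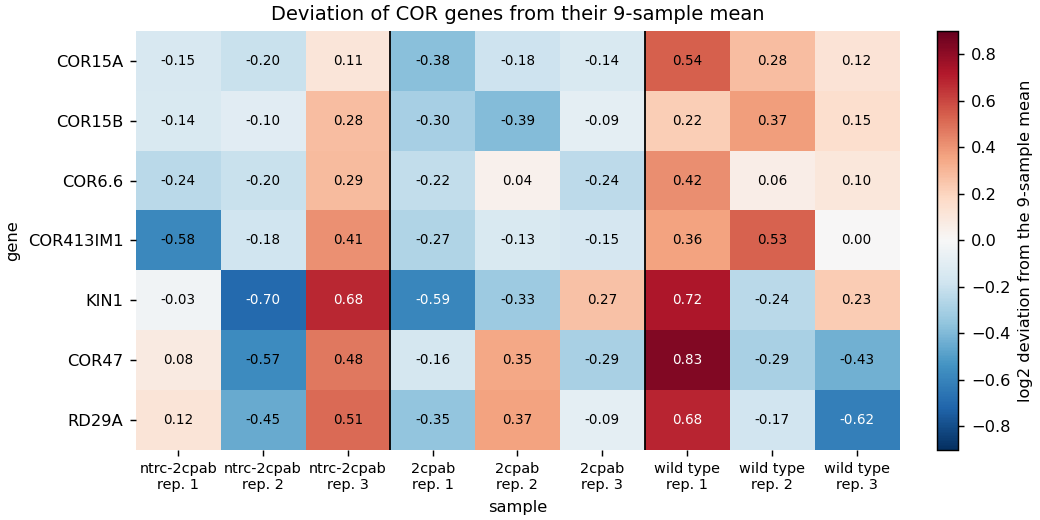
Deviation of each COR gene from its mean over the 9 samples (log2), with genes in rows and samples in columns grouped by genotype. RD29A and COR47 are positive in ntrc-2cpab replicate 3 (0.51 and 0.48), 2cpab replicate 2 (0.37 and 0.35) and wild type replicate 1 (0.68 and 0.83). COR15A, COR15B, COR6.6 and COR413IM1 are positive in all 3 wild-type samples, COR413IM1 at only 0.0018 in replicate 3. They are also positive in ntrc-2cpab replicate 3 (0.11, 0.28, 0.29 and 0.41).

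Across the 9 samples the COR genes whose pattern was most like that of COR15A by Pearson r were COR6.6 (Pearson r = 0.85, Spearman rho = 0.68) and COR15B (r = 0.84, rho = 0.83). COR413IM1 followed at r = 0.79 (rho = 0.78) and KIN1 at 0.70 (rho = 0.77), while COR47 had r = 0.47 (rho = 0.28) and RD29A 0.44 (rho = 0.33). By Spearman rho COR15B came first, and COR6.6 came after COR413IM1 and KIN1. Among the other tested loci the 5 highest were TKI1 (AT2G36960, r = 0.97), AGL42 (AT5G62165, r = 0.96), NTMC2T2.1 (AT1G05500, r = 0.96) and the plastid-encoded loci ATCG00610 (r = 0.96) and ATCG00470 (r = 0.95). AGL42, for one, had abundances of 2.38, 2.53 and 2.97 in ntrc-2cpab, 2.04, 2.18 and 2.38 in 2cpab, and 4.88, 4.10 and 3.87 in the wild type. These values describe 9 samples that share 1 scaling and 3 genotypes, and the 5 loci are the highest of all those tested.

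The regulators that act upstream of the CBF genes showed no called change. Of 25 listed genes, 23 were tested and 0 were called in any of the 4 comparisons. Over all tested loci the share called was 3.94% in ntrc-2cpab and 0.134% in 2cpab over the wild type. It was 0.0061% between the mutants and 5.11% with both averaged. The list includes the bHLH factors ICE1 and SCRM2, the CAMTA factors, the kinase OST1 and the MAP kinase cascade. Its median log2 difference from the wild type was -0.03 in ntrc-2cpab and -0.02 in 2cpab. Unadjusted p was under 0.05 for 2 genes in each (limma), against 24.4% of all loci in ntrc-2cpab and 17.3% in 2cpab. The largest in ntrc-2cpab was MKK2, a MAP kinase kinase of the cold pathway, at 0.36 (limma adjusted p = 0.226), followed by OST1 at -0.34 and SCRM2 at -0.31. Without wild type replicate 1 MKK2 was at 0.16, behind OST1 at -0.34 and SCRM2 at -0.30. SCRM2, the paralog of ICE1, had abundances of 11.7, 13.7 and 12.6 in ntrc-2cpab, 13.7, 15.2 and 14.5 in 2cpab, and 16.2, 15.3 and 16.3 in the wild type. Its 3 ntrc-2cpab samples lay below the wild type, as at 13.9% of all tested loci, without passing (limma adjusted p = 0.0605).

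Other early cold transcription factors, listed together with relatives of the CBF factors (DREB factors), were also uncalled. Of 16 listed, 10 were tested and 0 were called in any comparison. The share of all loci called was 3.94% in ntrc-2cpab and 0.134% in 2cpab over the wild type. It was 0.0061% between the mutants and 5.11% with both averaged. Of the 10, 3 in ntrc-2cpab (24.4% of all loci) and 1 in 2cpab (17.3% of all loci) had an unadjusted p under 0.05 (limma). The median difference of the 10 from the wild type was -0.16 in ntrc-2cpab and -0.19 in 2cpab. RAV1, a factor with AP2 and B3 domains, had abundances of 27.2, 24.5 and 25.2 in ntrc-2cpab, 18.7, 21.6 and 26.3 in 2cpab, and 8.99, 19.3 and 16.8 in the wild type. Its log2 difference was 0.79 in ntrc-2cpab (limma adjusted p = 0.0857), and 0.48 without wild type replicate 1. HSFC1 was at -0.58 (-0.35 without that sample) and the zinc finger factor ZAT12 at -0.42 in ntrc-2cpab, neither called. CBF4, a relative of the CBF factors known to answer to drought, was listed at 0 in all samples but 2cpab replicate 1 (0.0481), and DREB2A, a dehydration and heat factor, did not exceed 0.434.

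**Figure D5:**
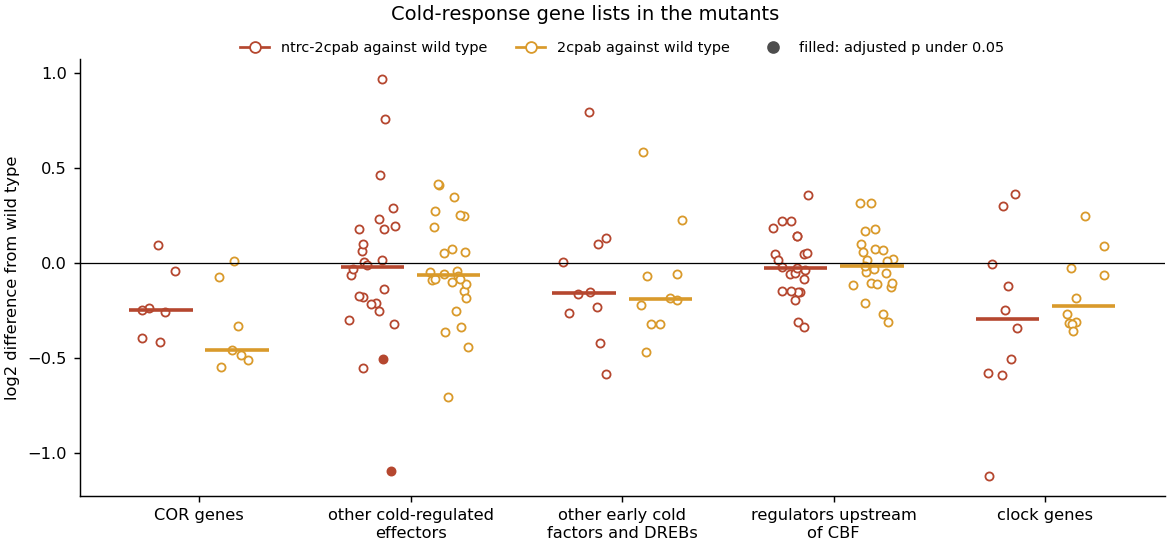
Log2 differences from the wild type for each tested gene of 5 cold-response lists, in ntrc-2cpab and 2cpab, with lines at list medians and filled points for an adjusted p under 0.05. The filled points are P5CS1 (-1.09) and SFR2 (-0.51) in ntrc-2cpab, and the COR medians are -0.24 and -0.45.

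Among other cold-regulated effector genes, 2 fell in ntrc-2cpab. Of 32 listed, 26 were tested, and 2 were called lower in ntrc-2cpab over the wild type (1.33% of all loci were) and with both mutants averaged (1.98% of all loci), 0 higher. None was called in 2cpab over the wild type (0.134% of all loci were). There 4 of 26 had an unadjusted p under 0.05 (limma), against 17.3% of all loci. The median of the list was -0.02 in ntrc-2cpab and -0.06 in 2cpab. P5CS1, the stress-induced enzyme of proline synthesis, had abundances of 17.2, 20.4 and 16.6 in ntrc-2cpab, 28.8, 20.9 and 22.6 in 2cpab, and 55.9, 37.2 and 29.8 in the wild type. All mutant samples of P5CS1 lay below the wild type, as at 7.35% of all tested loci. P5CS1 fell by 1.09 on the log2 scale in ntrc-2cpab (SE 0.21, limma adjusted p = 0.0288), with -0.70 in 2cpab (limma adjusted p = 0.148). SFR2, a galactolipid-remodelling enzyme of the outer chloroplast envelope needed for freezing tolerance, had 24.5, 27.9 and 22.9 in ntrc-2cpab, 26.6, 24.1 and 28.1 in 2cpab, and 35.2, 38.3 and 34.5 in the wild type. SFR2 fell by 0.51 in ntrc-2cpab (SE 0.09, limma adjusted p = 0.026), again with no overlap between mutant and wild-type samples, and was at -0.44 in 2cpab (limma adjusted p = 0.0788). Without wild type replicate 1 the adjusted p in ntrc-2cpab was 0.0685 for P5CS1 and 0.0761 for SFR2 (limma), and both calls also ended without ntrc-2cpab replicate 1 or replicate 3, and that of P5CS1 without ntrc-2cpab replicate 2.

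Clock genes are given because CBF genes are known to be gated by the clock. Of 12 listed, 10 were tested and 0 were called in any comparison. The share of all loci called was 3.94% in ntrc-2cpab and 0.134% in 2cpab over the wild type. It was 0.0061% between the mutants and 5.11% with both averaged. Unadjusted p was under 0.05 (limma) for 7 in ntrc-2cpab (24.4% of all loci) and 1 in 2cpab (17.3% of all loci). The median difference from the wild type was -0.29 in ntrc-2cpab and -0.23 in 2cpab. LHY, a morning MYB factor, had abundances of 13.0, 7.59 and 5.12 in ntrc-2cpab, 22.8, 14.9 and 9.28 in 2cpab, and 24.5, 16.9 and 15.5 in the wild type. All 3 ntrc-2cpab samples of LHY lay below the wild type, as at 13.9% of all tested loci. The log2 difference of LHY was -1.12 and did not pass (limma adjusted p = 0.0994). RVE8, a related MYB factor, was at -0.59 and LNK2, its coactivator, at -0.58 in ntrc-2cpab, neither called. Without wild type replicate 1 the ntrc-2cpab differences were -0.93 for LHY, -0.45 for RVE8 and -0.43 for LNK2. In ntrc-2cpab 8 of the 10 estimates lay below 0 and 2 above, GI at 0.37 and TOC1 at 0.30. Whether any clock difference bears on the CBF or COR genes was not tested.

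Marker lists of cell types are given beside the COR genes. Over all tested loci, 3.94% were called in ntrc-2cpab and 0.134% in 2cpab over the wild type, and 0.0061% between the mutants. With both mutants averaged 5.11% were called in either direction and 1.98% were called lower. The estimates of the 4 mesophyll markers (RBCS1A, RCA, LHCB1.3 and CA1) were below 0 in both mutants with 0 called in either, with summed abundance of 24981 to 26420 in ntrc-2cpab, 24728 to 26166 in 2cpab and 26748 to 33128 in the wild type. Of these CA1, a carbonic anhydrase, fell by 0.42 with both mutants averaged (limma adjusted p = 0.0336). The 4 guard cell markers (KAT1, FAMA, MYB60 and SLAC1) had estimates below 0 in both mutants with 0 called in either, and summed to 19.2 to 21.4 in ntrc-2cpab, 15.7 to 20.4 in 2cpab and 22.1 to 26.4 in the wild type. KAT1, a potassium channel of guard cells, fell by 0.46 with both mutants averaged (limma adjusted p = 0.0272), and the other 3 were not called. In ntrc-2cpab all 3 MYB60 samples lay within the wild-type range. Without wild type replicate 1 the adjusted p was 0.0818 for CA1 and 0.106 for KAT1 (limma). The 2 phloem markers summed to 38.6 to 44.8 in ntrc-2cpab, 34.1 to 42.3 in 2cpab and 44.7 to 49.8 in the wild type, with 0 called. Of 4 epidermis and trichome markers 3 were tested and 0 were called, at 70.4 to 76.8 in ntrc-2cpab, 59.4 to 75.5 in 2cpab and 57.4 to 69.3 in the wild type.

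The estimates of the immune genes PR1, PR2 and PR5 were above the wild type in both mutants, with 0 of 3 called and sums of 69.0 to 219 in ntrc-2cpab, 92.6 to 169 in 2cpab and 15.7 to 142 in the wild type. The lowest of these sums was in wild type replicate 1, the sample with the highest COR15A. Of 8 touch-responsive genes, included because handling is known to induce CBF genes, 0 were called in any comparison. The share of all loci called was 3.94% in ntrc-2cpab and 0.134% in 2cpab over the wild type. It was 0.0061% between the mutants and 5.11% with both averaged. The 8 genes had a summed abundance of 125 to 254 in ntrc-2cpab, 140 to 209 in 2cpab and 96.1 to 175 in the wild type. In each mutant 5 of the 8 estimates lay above 0 and 3 below. TCH3 was at 0.92 in ntrc-2cpab and 0.60 in 2cpab, or 0.61 and 0.29 without wild type replicate 1. TCH4 was at 0.35 in ntrc-2cpab and 0.91 in 2cpab. The part of these markers in the COR values was not tested.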

How the data were processed

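Poly(A) RNA was sequenced in 9 Arabidopsis leaf samples, labelled as biological replicates of 3 genotypes. The authors deposited 1 table of log2 values per locus. HISAT2, StringTie, FastQC and the build TAIR10 are named per the submitters' processing notes. No source used here says whether the abundance is FPKM or TPM, how it was scaled, or how strand and shared reads were handled. The upper quartile was 2.7483 in every sample, so values are relative to the rest of a sample, and the depth is unknown.

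Loci with a mean abundance of at least 1 (16384) were tested with limma 3.58.1 in R 4.3.3 on the log2(value + 1) scale, which understates changes of low genes. All 9 samples entered 1 fit with an intensity trend (6 residual degrees of freedom). p-values are two-sided, Benjamini-Hochberg adjusted within each comparison over all loci tested, and called under 0.05. The script was tested on simulated data. Alternatives were other filters, an offset of 0.1, quantile or nuclear-sum scaling, one prior variance, array weights, only the groups compared, a replicate block and each sample left out.

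The 10 genes and the lists were chosen with earlier results of these data known. In the cold-response and clock lists the called genes are named, or up to 3 with the largest difference in ntrc-2cpab where none was called. A few others are named as well, and the touch, phloem and epidermis lists did not follow this rule. Like patterns are the 5 loci with the highest Pearson r to COR15A.

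Sequences, positions and coding identities (Biopython 1.88) are from RefSeq TAIR10.1, matched by locus identifier. The deposited table holds no coordinates. Motifs were searched on both strands in 27443 genes.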

Additional observations from a re-analysis of the deposited data

How the results depend on the processing

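No COR gene was called under any alternative run in ntrc-2cpab or 2cpab over the wild type or between the mutants. The CBF genes have values only in fits without the abundance filter, where 14 alternatives were run. There CBF2 was called without 2cpab replicate 1, in ntrc-2cpab (limma adjusted p = 0.0443, range over the alternatives 0.0443 to 0.229) and with both mutants averaged (0.0379, range 0.0379 to 0.275), and no other CBF call was made. With both mutants averaged, the 1 call (COR15A) held with a mean abundance of at least 5, an offset of 0.1, both other scalings, one prior variance and array weights. It became 0 calls with no filter (limma adjusted p = 0.0813) and 0 with the replicate block (0.0791). With 1 sample left out it was 0 to 2 calls, COR15A being called only without wild type replicate 3 or ntrc-2cpab replicate 3. Over all 9 such fits, called or not, the COR15A difference ran from -0.56 to -0.36 and its limma adjusted p from 0.0412 to 0.143.

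Some differences near 0 turned sign. With array weights COR47 was 0.052 in ntrc-2cpab, 0.21 in 2cpab, 0.13 with both averaged and -0.16 between the mutants, and RD29A was -0.11 between the mutants. In 2cpab, RD29A was -0.0061 with quantile scaling and -0.029 with nuclear-sum scaling. With 1 sample left out, COR47 ran from -0.28 to 0.36 in ntrc-2cpab, -0.31 to 0.33 in 2cpab, -0.29 to 0.34 with both averaged and -0.21 to 0.31 between the mutants. RD29A ran from -0.20 to 0.45 in ntrc-2cpab, -0.28 to 0.37 in 2cpab, -0.24 to 0.41 with both averaged and -0.14 to 0.34 between the mutants. KIN1 ran from -0.60 to 0.086 in ntrc-2cpab, and between the mutants KIN1 ran from -0.15 to 0.54, COR6.6 from -0.083 to 0.18 and COR413IM1 from -0.20 to 0.30. The cause was not tested.

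With an offset of 0.1 the CBF2 differences were -1.25 in ntrc-2cpab, -0.66 in 2cpab and -0.96 with both averaged, and the CBF3 differences were -0.73, -0.42 and -0.58 in the same 3 comparisons. In ntrc-2cpab the calls of P5CS1 and SFR2 ended with only the groups compared (limma adjusted p = 0.0662 and 0.0644), that of P5CS1 with no filter (0.0684) and that of SFR2 with the replicate block (0.0517). Calls over all loci were 645 in ntrc-2cpab, 22 in 2cpab, 1 between the mutants and 837 with both averaged. With 1 sample left out they ran from 49 to 761 in ntrc-2cpab, 4 to 116 in 2cpab, 1 to 2 between the mutants and 17 to 768 with both averaged. The lowest in ntrc-2cpab and with both averaged were without wild type replicate 1, where 2cpab had 6. They were 232, 7, 5 and 403 with no filter and 357, 9, 1 and 445 with the replicate block. With only the groups compared they were 50 in ntrc-2cpab, 6 in 2cpab and 2 between the mutants, and 2cpab had 164 with array weights and 41 with nuclear-sum scaling. Over all tested loci, samples of the same replicate number deviated together weakly or not at all (r from -0.16 to 0.21). For replicate 1 the r values were 0.02 to 0.21, and 4 of 18 best matches shared a number. With 3 samples per genotype this cannot decide whether a number marks a shared batch, which the labels do not say.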
